A study of Mus musculus with 4 samples.

Results

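The Hox genes of the 4 mouse clusters were followed across 4 bulk RNA-seq libraries of C3H10T1/2, a mouse mesenchymal line with the look of fibroblasts that can be turned towards fat, bone, cartilage and muscle. Members were all protein-coding genes whose GENCODE M21 symbol is Hoxa, Hoxb, Hoxc or Hoxd followed by a number, which gave 39 genes among 54532 counted gene identifiers, of which 21995 were protein-coding. Hoxa on chromosome 6 has 11 of them, Hoxb on chromosome 11 has 10, Hoxc on chromosome 15 has 9 and Hoxd on chromosome 2 has 9. The libraries were 1 of unedited cells (WT), 1 of cells edited by CRISPR at the intron 5 splice acceptor of Prdx1 (PRDX1MT, whose genotype label reads PRDX1-KO), and 2 of DNMT3A/B double knockout cells (DKO clone 1 and DKO clone 5). All were grown in DMEM with fetal bovine serum, and the series was made to study how transcription running through Prdx1 silences the neighbouring gene Mmachc. It is not given in the labels if the DKO cells were made with or without the Prdx1 edit. The PRDX1MT library is 1 clone, as is each DKO library. Clone and genotype can thus be separated only as far as 2 clones allow in DKO, and not at all in PRDX1MT.

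Hox genes encode homeodomain transcription factors that give cells their position along the body axis. Within a cluster the genes lie in the order in which they are used, from anterior at one end to posterior at the other, and genes of the same position in different clusters are paralogues. Connective tissue cells and their lines keep part of this code in culture, Polycomb complexes are known to hold unused Hox genes silent and Trithorax complexes to keep used ones active, and the unmethylated CpG-rich DNA of the clusters is a known feature of their promoters.

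Depth ran from 27570136 counts in PRDX1MT to 37685798 in WT. A floor of 3 counts, an approximate limit for a count of 0, was worth 0.0729 to 0.121 CPM (reads over library size, which was adjusted by TMM). The exact Poisson intervals given below for 0 reads reach somewhat higher. Prdx1 was at 399 CPM in WT, 31.2 in PRDX1MT, with DKO clone 1 at 392 and DKO clone 5 at 332. Dnmt3a was at 43.7, 80.9, 31.3 and 25.9 CPM in the same order and Dnmt3b at 3.28, 3.74, 2.83 and 2.03, so RNA of both targeted genes was still counted in the DKO clones, and RNA counts do not test whether the proteins were lost. The mesenchymal markers fixed for the check summed to 21886 to 40110 CPM per library. Pluripotent markers summed to at most 0.389 CPM, and Epcam, Myod1, Adgre1 and Cd3e had 0 reads in every library. Neural markers summed to at most 8.61 CPM, endothelial to 16.8, immune to 4.37, epithelial to 2.13 and muscle to 1.82.

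Nearly all Hox RNA came from Hoxa. The promoter ends of 4 members are shown because they stand on either side of that divide: Hoxa2 and Hoxa10, which among members with at least 100 reads differed most between PRDX1MT and WT, Hoxa11, the next gene of the cluster after Hoxa10 and almost unread, and Hoxd10, the Hoxd paralogue of Hoxa10, unread in every library. Each is the 250 bases before the outermost RefSeq transcript start of the gene in the table used (GRCm38.p6), 5′ to 3′ on the strand of the gene, with CpG in capitals.
Hoxa2: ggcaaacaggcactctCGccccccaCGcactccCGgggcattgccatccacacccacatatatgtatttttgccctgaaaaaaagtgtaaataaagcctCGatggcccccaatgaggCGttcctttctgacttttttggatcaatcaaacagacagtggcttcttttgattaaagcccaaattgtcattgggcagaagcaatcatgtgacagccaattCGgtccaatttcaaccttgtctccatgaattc
Hoxa10: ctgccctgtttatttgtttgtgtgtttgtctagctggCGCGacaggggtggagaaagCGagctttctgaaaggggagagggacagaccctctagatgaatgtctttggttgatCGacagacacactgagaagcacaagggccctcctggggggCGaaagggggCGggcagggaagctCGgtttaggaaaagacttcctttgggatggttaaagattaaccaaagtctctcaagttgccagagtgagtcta
Hoxa11: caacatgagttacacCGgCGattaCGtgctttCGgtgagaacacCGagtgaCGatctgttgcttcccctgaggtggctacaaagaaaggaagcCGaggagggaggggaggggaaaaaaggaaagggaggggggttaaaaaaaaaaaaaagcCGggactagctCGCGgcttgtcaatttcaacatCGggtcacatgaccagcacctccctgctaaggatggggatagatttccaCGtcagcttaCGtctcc
Hoxd10: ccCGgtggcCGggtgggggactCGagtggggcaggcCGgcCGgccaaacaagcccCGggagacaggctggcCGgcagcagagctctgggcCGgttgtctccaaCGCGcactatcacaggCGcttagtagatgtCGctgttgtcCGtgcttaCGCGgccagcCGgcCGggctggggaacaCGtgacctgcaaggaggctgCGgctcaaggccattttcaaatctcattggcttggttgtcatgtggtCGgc
These lie at chr6:52164832-52165081 (minus strand) for Hoxa2, chr6:52240855-52241104 (minus) for Hoxa10, chr6:52245811-52246060 (minus) for Hoxa11 and chr2:74691641-74691890 (plus) for Hoxd10. They hold 6, 7, 13 and 20 CpG in that order, which depends on the starts shown: a second RefSeq window of Hoxa10 that covers 300 bases holds 21 CpG, where the 300-base window of the start shown here holds 12, that of Hoxa11 15 and that of Hoxd10 22.

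Hoxa members summed to 102 CPM in WT (95% exact Poisson interval 98.6 to 105), 83.5 in PRDX1MT (79.9 to 87.2), with DKO clone 1 at 126 (123 to 130) and DKO clone 5 at 135 (131 to 139). That was 98.0% of all Hox reads in WT (exact binomial interval 97.5 to 98.4) and 99.8%, 99.9% and 99.8% in PRDX1MT, DKO clone 1 and DKO clone 5. PRDX1MT was the lowest library and both DKO clones were above WT, by more than counting error and with no replicate of WT or PRDX1MT. Without Hoxa3, the most read member, the sums were 78.0, 55.6, 93.1 and 76.5 CPM in the order WT, PRDX1MT, DKO clone 1, DKO clone 5, and DKO clone 5 was then no longer above WT. Hoxc gave 1.77, 0.121, 0.168 and 0.182 CPM in the order WT, PRDX1MT, DKO clone 1, DKO clone 5, and Hoxb gave 0.340, 0.0402, 0 and 0.0363. Hoxd had 0 reads in every library, which by the exact Poisson interval allows a summed level of up to 0.0896, 0.148, 0.103 and 0.134 CPM. Hoxb and Hoxc were thus highest in WT, where 57 of the 73 Hoxc reads were those of Hoxc13. The Hoxb sum in WT came from 14 reads (0.186 to 0.571 CPM), and its interval overlapped those of PRDX1MT and DKO clone 5. In bulk RNA, fewer cells that use a Hox gene and less RNA per cell cannot be told apart.

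At a threshold of 1 CPM, 9 of 39 members were read in WT and 8 in each of the other libraries, against 52.7% of protein-coding genes in WT, 52.7% in PRDX1MT, with DKO clone 1 at 51.6% and DKO clone 5 at 51.2%. The 8 shared ones were all of Hoxa, Hoxa2 to Hoxa7 and Hoxa10 among them, and the ninth in WT was Hoxc13. These 8 were also the only members with at least 100 reads over the 4 libraries. Of all 39 members, 17 had 0 reads in every library (6 of Hoxb, 2 of Hoxc and all 9 of Hoxd), where 23.7% of all protein-coding genes had none. The rest of Hoxb and Hoxc, other than Hoxc13 and Hoxc6, had at most 5 reads in a library. The grid of levels by cluster and position shows 1 filled row and 3 nearly empty ones.

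**Figure D1:**
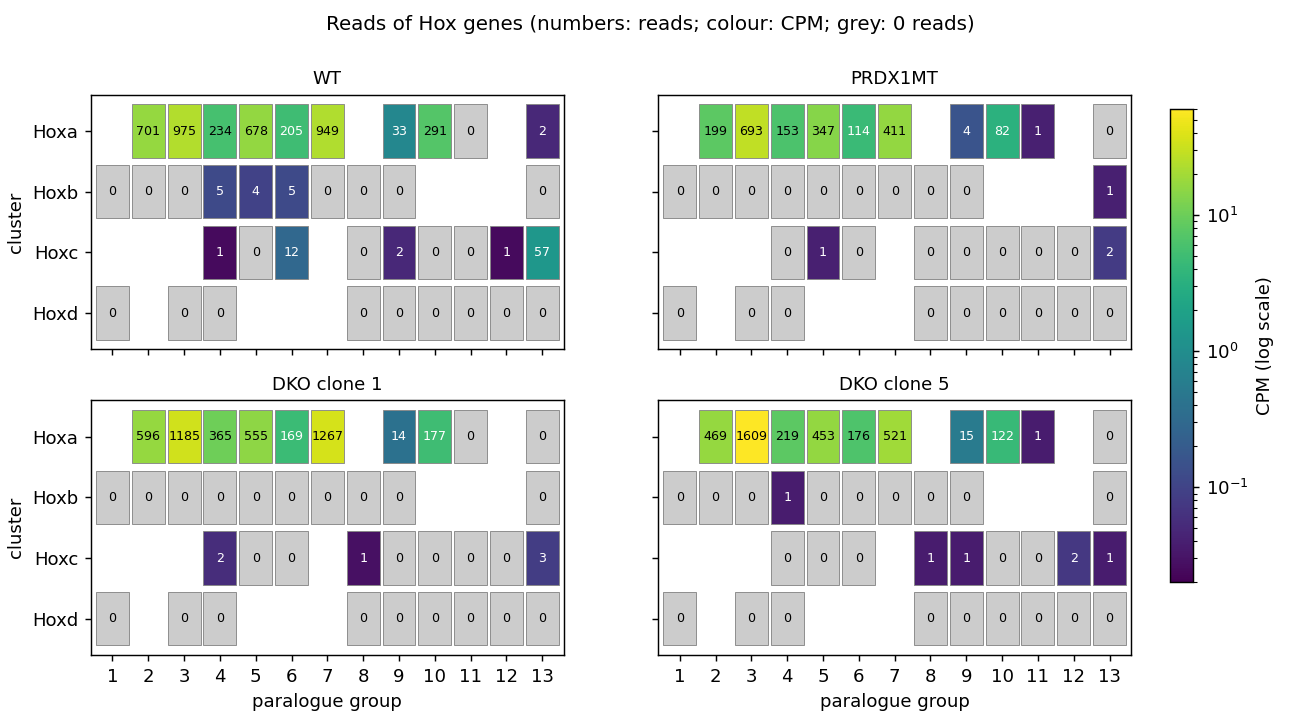
Hox members by cluster (rows) and paralogue group (columns) in the 4 libraries, 1 panel a library, with the reads as the number, the TMM-scaled CPM as the colour (log scale) and grey for 0 reads. Hoxa2 to Hoxa7 and Hoxa10 are at 1 CPM or more in every panel, Hoxc13 passes it only in the WT panel, and every Hoxd gene is at 0.

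Levels between genes were compared per kilobase of merged exons, since long transcripts collect more reads. In WT, the order of the members given here was Hoxa2 at 9.60 CPM per kb, Hoxa5 at 8.78, Hoxa7 at 8.02, Hoxa6 at 5.70, Hoxa3 at 3.94, Hoxa4 at 3.57, Hoxa10 at 2.16 and Hoxa9 at 0.144. The leading gene per kb differed between libraries: Hoxa2 in WT, Hoxa5 in PRDX1MT (7.43), Hoxa7 in DKO clone 1 (12.4) and Hoxa3 in DKO clone 5 (9.72). In DKO clone 5, Hoxa2 followed at 9.60 and the 2 genes were within counting error of each other. The intervals of Hoxa2 (8.90 to 10.3) and Hoxa5 (8.13 to 9.46) also overlapped in WT. Averaged over the libraries, Hoxa5, Hoxa2 and Hoxa7 stood at 8.32, 8.28 and 8.17 CPM per kb, values closer to each other than the same gene was between libraries. Exons shared with other annotated genes bear on this order, since only 72.9% of the Hoxa3 exon bases and 79.6% of those of Hoxa7 are free of other genes. Counted per kilobase of exon that no other gene covers, the means were 10.3 for Hoxa7, 9.74 for Hoxa2, 8.32 for Hoxa5 and 8.17 for Hoxa3. Counted that way in PRDX1MT, Hoxa5 was at 7.43 and Hoxa7 at 7.21.

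The profile along Hoxa was not graded. Hoxa9, a posterior trunk and blood progenitor factor, lay between 2 read genes and was at 0.802, 0.161, 0.393 and 0.545 CPM in WT, PRDX1MT, DKO clone 1 and DKO clone 5, from 33, 4, 14 and 15 reads. Hoxa10, a limb and uterus patterning factor, was read again at 7.07, 3.30, 4.96 and 4.43 CPM. Hoxa11, which patterns the forearm, and Hoxa13, which patterns the digits, were then nearly empty, with 2 reads each over the 4 libraries. The outermost annotated start of Hoxa11 lies 4.96 kb from that of Hoxa10, and the genes had 2 and 672 reads over the 4 libraries. Another RefSeq start of Hoxa10 lies further from Hoxa11, and counts per gene do not show which start the reads came from. Reads of the other annotated genes of the cluster also stopped after Hoxa10: 8 of the 12 up to Hoxa10 had reads, and the 8 beyond it had 0. Of all genes free of overlap with exons of another gene, 47.5% had 0 reads in every library.

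**Figure D2:**
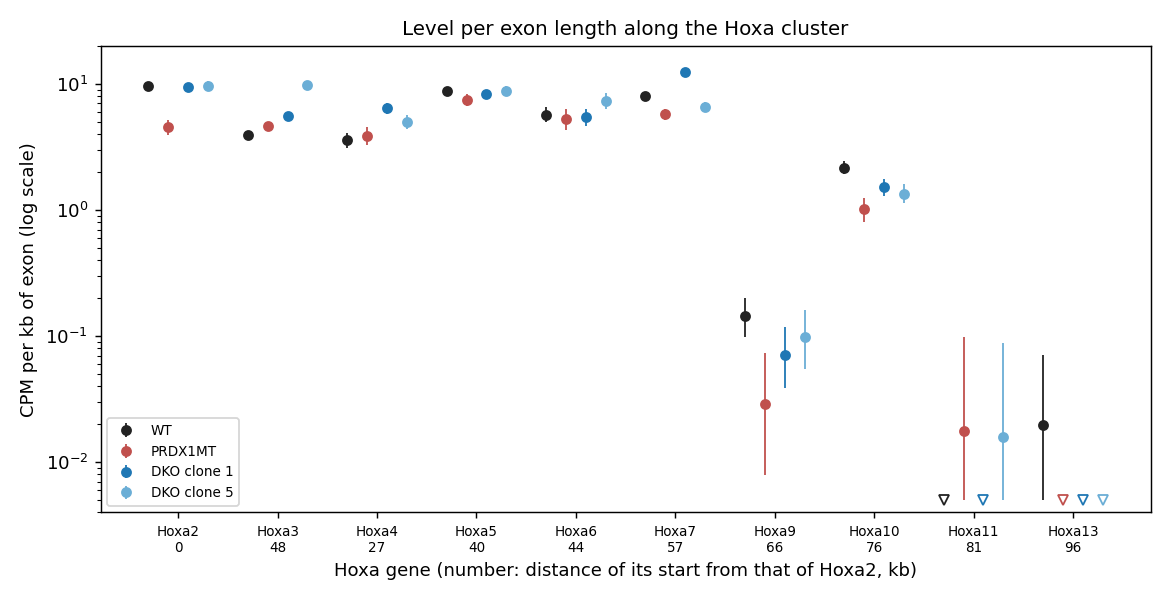
Level of Hoxa members (CPM per kb of merged exons, log axis) in paralogue order, 1 point a library with its 95% Poisson interval, and the distance of the outermost annotated start from that of Hoxa2 in kb under each name. Open triangles at the bottom are libraries with 0 reads: the points dip at Hoxa9, return at Hoxa10 and drop at Hoxa11 and Hoxa13. The outermost annotated start of Hoxa3 lies beyond that of Hoxa6.

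Genes on both sides of Hoxb, Hoxc and Hoxd had reads. All 19 annotated genes within the 96.8 kb of Hoxd had 0 reads, while Lnpk, 88.9 kb to one side, was at 32.1 CPM in WT and Mtx2, 60.7 kb to the other, at 23.5. Lnpk shapes the endoplasmic reticulum and Mtx2 is a mitochondrial import factor, and in the other libraries they were at 25.4 to 28.4 and 19.4 to 23.1 CPM. In Hoxb, 13 of 19 genes inside the 174 kb span had 0 reads, and in Hoxc 8 of 16 inside 116 kb. Of all annotated genes free of overlap with exons of another gene, 47.5% had 0 reads in every library. The Hoxc count is near that share. For genes that exons of the opposite strand cover fully the share was 99.3%. Both flanks of each cluster thus held genes with reads, the nearest ones of Hoxa being Skap2 at 143 kb and Hibadh at 285 kb.

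DKO, with 2 clones, was the only group with replicates, and no Hox member passed the test against WT. In the edgeR quasi-likelihood test, 10 members had enough reads to be tested and 0 had an adjusted p under 0.05, against 0.468% of the 19446 genes tested (0.0154% higher and 0.453% lower). At an unadjusted p under 0.05 there was 1 member, Hoxc13, against 988 of all 19446 genes tested. DESeq2 called 0 members, and 255 of all genes. Hoxc13 had enough reads for the test through WT alone, the library where it is high, so its p supports nothing. The median log2 fold change was 0.07 over the 10 members and 0.03 over all genes tested. Standard errors of the 10 were 0.49 to 1.14 on the log2 scale, so even for the best measured member a log2 fold change of 1 was only about 2 standard errors. The fit took its spread from the 2 DKO clones alone. In simulated data of the same layout, 13 of 100 genes changed by 2 log2 units were recovered and 82 of 100 changed by 4. There were 9 false calls. Every simulated gene had the same dispersion and only genes above a read minimum were changed, so members with few reads were not represented.

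Among the members, Hoxa2 and Hoxa5 lay closest to WT. Hoxa2, a hindbrain and branchial arch patterning factor, was at 17.0 CPM in WT, 16.7 in DKO clone 1 and 17.0 in DKO clone 5 (DKO mean 16.9 ± 0.227, SD, n = 2). Its log2 fold change was -0.01 with an SE of 0.50 (edgeR adjusted p = 1.00). Hoxa5, which acts in the lung and the neck skeleton, was at 16.5 CPM in WT, 15.6 in DKO clone 1 and 16.5 in DKO clone 5, a log2 fold change of -0.04 with an SE of 0.49 (edgeR adjusted p = 1.00). For both, WT lay within or next to the range of the clones.

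Hoxa4, a neck vertebra factor, was higher in both clones than in WT, yet did not pass. It was at 5.69 CPM in WT against 10.2 in DKO clone 1 and 7.95 in DKO clone 5, a log2 fold change of 0.68 (SE 0.60, edgeR adjusted p = 1.00). Hoxa10 lay the other way, at 7.07 CPM in WT and 4.70 ± 0.376 (SD, n = 2) in DKO, with a log2 fold change of -0.59 (SE 0.61, edgeR adjusted p = 1.00). Hoxa6, a thoracic patterning gene, was at 4.98 CPM in WT, 4.58 in PRDX1MT, with DKO clone 1 at 4.74 and DKO clone 5 at 6.39. WT fell inside the range of the 2 clones for Hoxa6 and outside it for Hoxa4 and Hoxa10.

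Hoxa3 and Hoxa7 were the members in which the 2 DKO clones differed most. Hoxa3, needed for the thymus and parathyroid, was at 23.7 CPM in WT (interval 22.2 to 25.2), 27.9 in PRDX1MT (25.8 to 30.0), with DKO clone 1 at 33.2 (31.4 to 35.2) and DKO clone 5 at 58.4 (55.6 to 61.4). Hoxa7, a trunk patterning gene, was at 23.1 CPM in WT (21.6 to 24.6), 16.5 in PRDX1MT (15.0 to 18.2), with DKO clone 1 at 35.5 (33.6 to 37.5) and DKO clone 5 at 18.9 (17.3 to 20.6). DKO clone 5 was thus the highest library for Hoxa3, and DKO clone 1 the highest for Hoxa7, for which the clones lay on either side of WT. As groups, DKO was at 45.8 ± 17.8 CPM (SD, n = 2) for Hoxa3, a log2 fold change of 0.95 (SE 0.53), and at 27.2 ± 11.7 for Hoxa7, a log2 fold change of 0.24 (SE 0.55), both with an edgeR adjusted p of 1.00.

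Pairs of single libraries have no replicate check, so members were read by size: a log2 CPM ratio of at least 1 in either direction, at least 100 reads in the pair, and a 95% exact binomial interval of the ratio that excludes no difference. Between the clones, 0 of 8 members passed, against 18.4% of all genes with as many reads (7.63% higher and 10.7% lower in DKO clone 5). The ratio of DKO clone 5 to DKO clone 1 was 1.76-fold for Hoxa3 (1.63 to 1.90), and Hoxa7 was 1.88-fold lower in DKO clone 5 (1.69 to 2.08). Against WT, 0 of 8 members passed in DKO clone 1 (16.0% of all genes did, 8.40% higher and 7.56% lower), with log2 ratios from -0.51 to 0.84. In DKO clone 5, 1 of 8 passed (14.3% of all genes did, 5.69% higher and 8.58% lower): Hoxa3, 2.47-fold higher (2.28 to 2.67), a log2 ratio of 1.30. Counted in either direction, none of these 3 shares of members was above that of all genes.

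The share of the Hoxa reads that single genes held differed between the libraries. Hoxa3 held 23.3% of the Hoxa reads in WT (exact binomial interval 22.0 to 24.6), 33.4% in PRDX1MT (31.3 to 35.4), with DKO clone 1 at 26.3% (25.0 to 27.6) and DKO clone 5 at 43.3% (41.7 to 44.9). Hoxa7 held 22.7%, 19.8%, 28.1% and 14.0% in the same order, and Hoxa2 held 16.8%, 9.58%, 13.2% and 12.6%. Hoxa3 was the most read member in WT, PRDX1MT and DKO clone 5, and Hoxa7 in DKO clone 1.

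Non-coding genes on the opposite strand inside the Hoxa3 span were, like Hoxa3, highest in DKO clone 5. That annotated span, chr6:52169062-52213336, also takes in all of Hoxa4, Hoxa5 and Hoxa6. 5730596B20Rik was at 6.97, 8.48, 5.36 and 19.4 CPM in WT, PRDX1MT, DKO clone 1 and DKO clone 5, and Gm29430 at 1.51, 1.89, 1.35 and 4.07. Both passed the size rule as higher in DKO clone 5 than in WT, with log2 ratios of 1.47 and 1.40. They were 2 of the 6 non-member genes inside Hoxa with enough reads, against 5.69% of all genes. Hotairm1, a long non-coding RNA of the cluster on the opposite strand, was at 2.72, 4.78, 7.04 and 4.25 CPM. It passed as higher in DKO clone 1 only, with a log2 ratio of 1.35, though the clones did not pass the rule against each other. Of the 6 such genes, 1 was higher in DKO clone 1, against 8.40% of all genes. Hoxaas2 was at 13.9, 9.57, 19.9 and 21.9 CPM. The strand setting of the counting is not given in the sources used here, and reads were missing in every library for 99.3% of the 454 genes that exons of the opposite strand cover fully, and for 47.5% of genes free of overlap. Values of these antisense genes, and of the members that overlap them, are therefore uncertain.

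PRDX1MT against WT gave 2 of 8 members past the size rule, both lower, where 7.57% of all genes were lower, 7.25% higher and 14.8% either. Hoxa2 was at 17.0 CPM in WT (15.8 to 18.3) and 8.00 in PRDX1MT (6.93 to 9.19), 2.13-fold lower (1.82 to 2.51), from 701 and 199 reads. Hoxa10 was at 7.07 CPM in WT (6.28 to 7.93) and 3.30 in PRDX1MT (2.62 to 4.09), 2.15-fold lower (1.67 to 2.78), from 291 and 82 reads. PRDX1MT was the lowest of the 4 libraries for both genes, which sit at opposite parts of the read stretch. Hoxa7 was 1.40-fold lower (1.24 to 1.57) and Hoxa5 1.18-fold lower (1.04 to 1.35), both under the size threshold, while the intervals of Hoxa4 and Hoxa6 took in no difference. Hoxa3 was 1.18-fold higher (1.07 to 1.30).

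The median gene of chromosome 6 lay on the same side of WT as the median Hox member in each edited line. The median log2 ratio of PRDX1MT to WT was -0.28 over 642 genes of chromosome 6 and -0.04 over all 12693 genes with as many reads, and that of the 8 Hox members was -0.18. For the DKO clones against WT it was 0.22 and 0.26 on chromosome 6, against -0.02 and -0.03 over all genes, and 0.23 and 0.18 over the Hox members. Centred on the chromosome 6 median, Hoxa2 and Hoxa10 each had a log2 ratio of -0.80 in PRDX1MT and neither passed the size rule, and Hoxa3 in DKO clone 5 was at 1.04 and passed. What the chromosome as a whole contributes to these differences was not tested further. Of the 5 protein-coding genes on each side of Hoxa, 9 had reads, and their median log2 ratio was -0.62 in PRDX1MT, with DKO clone 1 at 0.09 and DKO clone 5 at 0.27. By the size rule, 1 of the 9 was lower in PRDX1MT (7.57% of all genes were), 2 were higher in DKO clone 1 (8.40%) and 1 was lower in DKO clone 5 (8.58%). Jazf1, a transcriptional cofactor, was the lower one in PRDX1MT (4.16 CPM in WT, 1.77 in PRDX1MT) and in DKO clone 5 (1.34), and Skap2 and Creb5 were the higher ones in DKO clone 1.

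**Figure D3:**
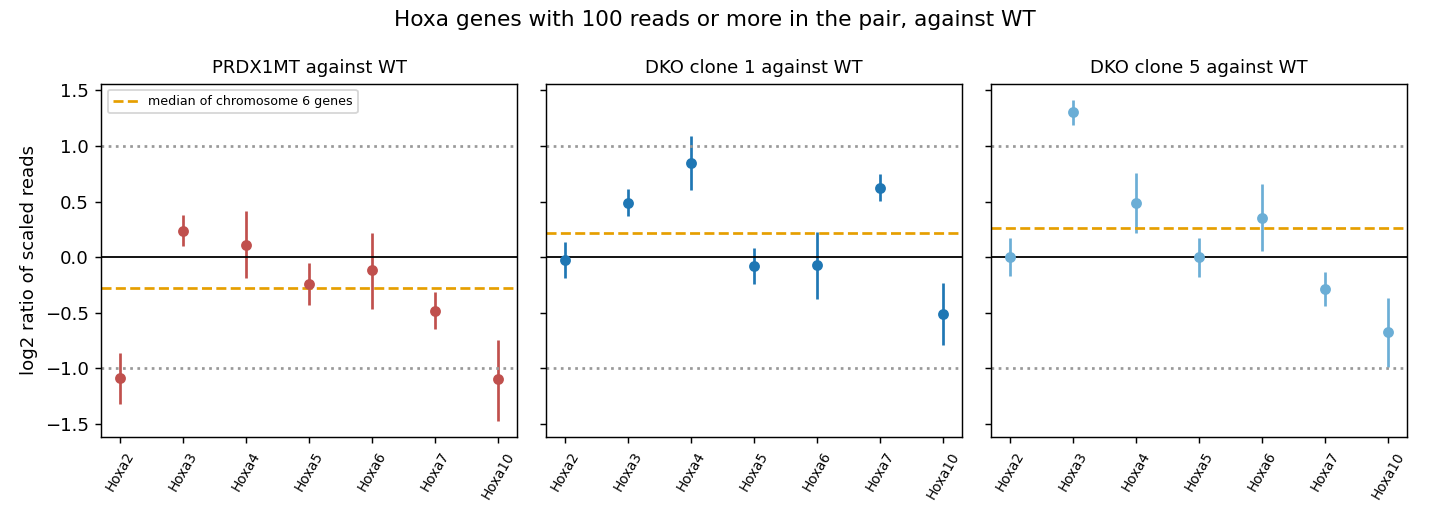
Log2 ratio to WT of the scaled reads of Hoxa members with at least 100 reads in the pair, for PRDX1MT, DKO clone 1 and DKO clone 5, with 95% intervals of the counting. Dotted lines mark ratios of 1 and -1 on the log2 scale and the dashed line the chromosome 6 median of that comparison: Hoxa2 and Hoxa10 pass below in PRDX1MT, Hoxa3 passes above in DKO clone 5, and no member shown passes in DKO clone 1.

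DKO against PRDX1MT shares the DKO libraries with the comparison to WT. In the edgeR test 0 of 10 members had an adjusted p under 0.05, against 0.206% of all genes (0.0103% higher, 0.195% lower). At an unadjusted p under 0.05 there were 0 members, against 912 of all 19446 genes. DESeq2 called 0 members, and 213 of all genes. The median log2 fold change was 0.64 over the members and 0.04 over all genes tested. Hoxa2, at 8.00 CPM in PRDX1MT and 16.9 ± 0.227 (SD, n = 2) in DKO, had a log2 fold change of 1.08 (SE 0.53, edgeR adjusted p = 1.00). Hoxa7 and Hoxa3 were at 0.72 each, and Hoxa9, with 4 reads in PRDX1MT, at 1.52 with an SE of 1.19.

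A few members of Hoxb and Hoxc, picked for this pattern, had reads in WT, the deepest library, and hardly any in the edited lines. The share of all genes with such a pattern was not counted. Hoxc13, a hair and nail differentiation factor at the posterior end of its cluster, had 57 reads in WT and 2 in PRDX1MT, with DKO clone 1 at 3 and DKO clone 5 at 1. That was 1.39 CPM (1.05 to 1.79) against 0.0804, 0.0841 and 0.0363, so WT stood apart from the other 3 libraries. It was 17.2-fold lower in PRDX1MT (counting interval 4.56 to 146), 16.5-fold lower in DKO clone 1 (5.36 to 82.2) and 38.1-fold lower in DKO clone 5 (6.58 to 1533), all from under 100 reads and so outside the size rule. For DKO against WT the log2 fold change was -4.40 (SE 1.14) with an edgeR adjusted p of 0.317; with no filter on low counts it passed, at an edgeR adjusted p of 0.0151. These values describe a gene that entered the test, and was picked out here, for its reads in WT. Hoxc6, a thoracic patterning gene, had 12 reads in WT and 0 in the 3 other libraries. Hoxb4, Hoxb5 and Hoxb6, which pattern the neck and trunk, had 5, 4 and 5 reads in WT and together 1 read in the 3 others. For Hoxb4, Hoxb5 and Hoxb6 alike, the counting interval of the ratio to WT took in no difference in every edited line. Of the 10 mesenchymal markers, 1 passed in DKO against WT: Thy1 (edgeR adjusted p = 0.0321), at 29.0 CPM in WT and 0.884, 0.757 and 1.38 in PRDX1MT, DKO clone 1 and DKO clone 5. The list as a whole was not highest in WT, with a median log2 fold change of 0.02 in DKO against WT and summed levels of 22200, 33758, 21886 and 40110 CPM in the same order. What sets WT apart from the edited lines in these genes was not tested.

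Members that were hardly read in WT stayed under 10 reads in the edited lines. Of the 28 members with under 10 reads in WT, 0 reached 10 reads in PRDX1MT, DKO clone 1 or DKO clone 5, and the most reads any of them had were 1, 2 and 2. Among all 8935 protein-coding genes with under 10 reads in WT, the share that reached 10 was itself low, at 3.30%, 4.22% and 2.40% in the same order, so a count of 0 of 28 is near that background. Over the 9 Hoxd genes the DKO clones had 0 reads at depths of 34901511 and 27789693 counts. This holds for RNA only, since DNA methylation was not measured in these libraries.

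Promoter sequence was described for the members in the RefSeq table of windows from 250 bases before to 50 bases after a transcript start (GRCm38.p6). It held 24 windows of 22 of the 39 members. Hox windows had a median of 14.5 CpG, from 4 to 45, against 7 over all 32851 windows, and 83.3% of them were above that overall median. The 7 windows of read members had 9 to 29 CpG (median 20) and the 17 of other members 4 to 45 (median 14). The ranges of read and unread members overlapped widely, with Hoxd13 at 37 CpG and Hoxa13 at 45 among the unread and Hoxa2 and Hoxa7 at 9 each among the read. The sequence TGATTNAT, a form of site that Hox proteins can bind together with Pbx, searched on both strands, was in 8.33% of Hox windows (1 of Hoxa2 and 1 of Hoxd11) and in 3.22% of all windows.

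**Figure D4:**
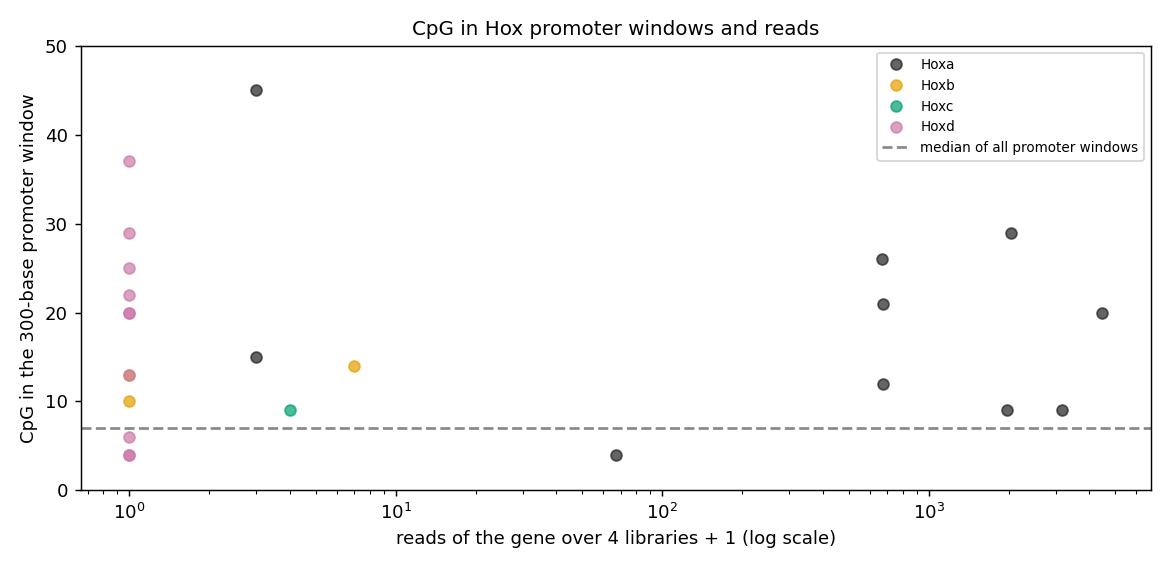
Number of CpG in each 300-base RefSeq promoter window of the Hox members against the reads of the gene over the 4 libraries (plus 1, log axis), coloured by cluster, with the median of all windows as a dashed line. The 9 to 29 CpG of members with at least 100 reads lie within the 4 to 45 of the others, 20 of the 24 windows lie above the line at 7, and some points coincide.

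Most cofactors and regulators of Hox genes were read in every library. Of 9 Hox cofactors, 7 were at 1 CPM or more in all libraries. In DKO against WT and DKO against PRDX1MT alike 0 passed in edgeR, 1 (Pknox2) had an unadjusted p under 0.05, and DESeq2 called 0. Over all 19446 genes tested, 988 and 912 had such an unadjusted p, and DESeq2 called 255 and 213. Meis2, a homeodomain partner of Hox proteins, was at 198 CPM in WT, and at 114, 152 and 120 CPM in PRDX1MT, DKO clone 1 and DKO clone 5. All 31 Polycomb subunits and all 19 Trithorax factors and demethylases of the lists were at 1 CPM or more in every library, and in both comparisons 0 passed in edgeR, 0 had an unadjusted p under 0.05, and DESeq2 called 0. By the size rule, 1 of the 31 Polycomb subunits was lower and 0 higher in PRDX1MT (7.57% and 7.25% of all genes). DKO clone 1 had 2 lower and 0 higher of 31 (7.56% and 8.40%), and DKO clone 5 had 0 lower and 2 higher (8.58% and 5.69%). Rnf2, the ubiquitin ligase of Polycomb complex PRC1, was the lower one in PRDX1MT, at 44.7 CPM in WT and 21.8 in PRDX1MT. It was at 41.3 and 32.5 CPM in DKO clone 1 and DKO clone 5. Kmt2a, the methyltransferase that keeps Hox genes active, was at 183, 186, 147 and 167 CPM.

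Retinoic acid switches on anterior Hox genes in embryos, and some genes of its pathway were at different levels in these lines. In edgeR, 13 of 18 were tested and 0 passed in either comparison, while 3 had an unadjusted p under 0.05 in DKO against WT and 1 in DKO against PRDX1MT. Of all 19446 genes tested, 988 and 912 had such a p. DESeq2 called 2 and 1 of the 13, Dhrs3 and Aldh1a1 in the first and Aldh1a3 in the second. Of all genes it called 255 and 213. By the size rule, 3 of 9 were higher and 0 lower in PRDX1MT than in WT, where 7.25% and 7.57% of all genes were. In DKO clone 1 it was 2 higher and 0 lower of 9 (8.40% and 7.56% of all genes), and in DKO clone 5 it was 3 higher and 1 lower of 10 (5.69% and 8.58%). Dhrs3, which turns retinal back to retinol, was at 8.80 CPM in WT, 88.9 in PRDX1MT, with DKO clone 1 at 142 and DKO clone 5 at 64.1, higher by the size rule in each edited line (edgeR adjusted p = 0.115 for DKO against WT). Aldh1a3, which makes retinoic acid, was at 1.73, 8.68, 0.729 and 1.16 CPM, and Cyp26b1, which breaks it down, at 72.0, 157, 37.0 and 228.

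Other homeobox genes of position gave mixed values. Of the 8 ParaHox and Evx genes, relatives of the clusters, 7 had 0 reads in every library, Evx1 and Evx2 beside Hoxa and Hoxd among them, and 0 could be tested. Of 44 mesenchymal positional factors, 31 were tested and 0 passed in either edgeR comparison (6 in each had an unadjusted p under 0.05, and DESeq2 called 0). Over all 19446 genes tested, 988 had such an unadjusted p in DKO against WT and 912 in DKO against PRDX1MT. By the size rule, 5 of the 22 with enough reads were higher and 1 lower in PRDX1MT than in WT (7.25% and 7.57% of all genes). In the DKO clones there were 2 higher and 3 lower of 22 in DKO clone 1 (8.40% and 7.56% of all genes) and 0 higher and 7 lower of 22 in DKO clone 5 (5.69% and 8.58%). The largest ratios in PRDX1MT were those of Irx3, at 6.68 CPM in WT, 22.7 in PRDX1MT, with DKO clone 1 at 14.6 and DKO clone 5 at 2.43, and Shox2, at 7.36, 2.45, 6.14 and 8.53.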

How the data were processed

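RNA was measured in 4 bulk libraries. Per the labels' protocols, total RNA was extracted with DNase treatment and made into stranded libraries after removal of ribosomal RNA, and alignment was to mm10 with STAR 2.6.1d, per the submitters' processing notes. How reads were counted (program, annotation, strand) is not given in the sources used here. Deposited values are the authors' raw counts per gene, not normalized. GENCODE M21 (GRCm38/mm10) gave names and coordinates for 54495 of 54532 identifiers, and 37 were left without a name (up to 0.00463% of a library's counts).

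The labels gave 3 groups: WT with 1 library, PRDX1MT with 1 library of 1 clone, and DKO with 2 clones. Reads were scaled with TMM over the genes kept by filterByExpr. All 3 groups were fitted together by edgeR 4.0.16 (R 4.3.3, limma 3.58.1) with its quasi-likelihood test and Benjamini-Hochberg adjustment over 19446 genes, threshold 0.05. Residual degrees of freedom were 1 (prior 6.54), with 0.187 as the common dispersion. WT and PRDX1MT are thereby taken to vary as the DKO clones do, and p-values measure only the spread between those clones. Single libraries were compared without a p by the size rule given with the results (prior count 2). Intervals and floors cover counting error only, since without molecular identifiers PCR copies of a molecule are counted again. DESeq2 1.42.0, other scalings, filters, read minimums and prior counts and leaving out each clone were tried. The fits were checked on simulated data.

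Every member is in the counts, and those with at least 100 reads in all are named with their values, except for results that are not reported here. Figures leave those out too. From the other lists, genes past a test, the 2 largest ratios past the size rule in PRDX1MT or the 2 highest levels were named. Hotairm1, Hoxaas2, 5730596B20Rik, Gm29430, Kmt2a, Skap2, Creb5 and the genes flanking the clusters were added for their place or role with values known. The members, lists and tests were chosen with earlier results of these data known. Centring on chromosome 6 and exon length free of other genes were chosen after seeing the data. RefSeq windows (GRCm38.p6) gave promoter sequences for 22 members.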

Additional observations from a re-analysis of the deposited data

How the results depend on the processing

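No Hox member passed in DKO against PRDX1MT under any alternative run, and in DKO against WT only Hoxc13 passed (1 member), with no filter on low counts, from reads nearly all in WT. Over all genes, 91 passed in DKO against WT, 255 with DESeq2, 535 with no filter, 0 with a filter of 1 CPM in 2 libraries, and 21 to 92 with a DKO clone left out (21 without clone 1). For DKO against PRDX1MT the counts were 40, 213, 404, 0 and 21 to 92 (92 without clone 5), with 13 under median-of-ratios scaling, 7 under total-count scaling and 11 with only the groups compared. Fits without a clone take their spread from WT and PRDX1MT joined and compare the other clone with both. Members past the size rule in PRDX1MT (2) became 4 with at least 20 reads (Hoxa9 and Hoxc13 added), 1 with at least 500, 0 with a log2 ratio of at least 2 and 0 centred on chromosome 6. In DKO clone 1 there was 1 with at least 20 reads (Hoxc13), and in DKO clone 5 there were 2 with at least 20 reads (Hoxc13 added) and 0 at a log2 ratio of 2. Summed Hoxa was 111 CPM in WT and 75.3 in PRDX1MT under total-count scaling. Without Hoxa3 it was 78.0, 55.6, 93.1 and 76.5 CPM in WT, PRDX1MT, DKO clone 1 and DKO clone 5, so DKO clone 5 was then not above WT. Hoxb without Hoxb4 was 0 in DKO clone 5, and Hoxc without Hoxc13 was 0.389 CPM in WT. Length of exon free of other genes moved 16 of 32 levels per kb. No paired analysis was possible because the groups share fewer than 2 replicate numbers. Where a filter or read minimum was changed, other numbers of genes or members were tested; for the other changes the cause was not tested.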
